A study of Mus musculus with 24 samples.

Results

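The Zfp36 and Klf early response genes are 10 genes picked by name from a table of 27179 genes that gives H3K27Ac over each gene in mouse organs. They are Zfp36, Zfp36l1, Zfp36l2, Klf2, Klf4, Klf6, Klf9, Klf10, Klf13 and Klf15, and each matched 1 row. The choice used measured values: Zfp36 had the largest difference downward in brain, and Klf4 was high in heart. Brain against the other organs and heart against the other organs are therefore given for these genes as descriptions, with no test. H3K27Ac, histone H3 acetylated at lysine 27, is a mark of active promoters and enhancers, and it was measured by chromatin immunoprecipitation followed by sequencing. Brain, heart, kidney and liver were each taken as flash-frozen tissue (Frozen) or as formalin-fixed, paraffin-embedded tissue (FFPE), with no other treatment or allele named in the labels. The labels give no strain, age, sex or animal for any group, so a difference between mice cannot be told apart from a difference between organs or preservations.

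The ZFP36 proteins are zinc finger proteins that bind AU-rich elements in mRNAs and recruit the CCR4-NOT deadenylase, which shortens the poly(A) tail and speeds decay. The Kruppel-like factors (KLF) are zinc finger transcription factors that bind GC-rich and CACCC sequences in promoters and enhancers. Several genes of both families are switched on quickly by serum, cytokines, fluid flow or glucocorticoids, and KLF2 and KLF4 are known for keeping endothelium quiescent, KLF15 for amino acid breakdown and glucose production in liver.

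The table has 8 columns, 1 for each organ and preservation, while the labels list 2 samples for each. Whether a column holds 1 of them or both is not stated, and each column was counted as 1 library. Total counts ran from 4404789 to 6164562, and the 10 genes had between 120 counts (Klf2 in brain Frozen) and 2375 counts (Zfp36 in liver Frozen). Values are log2 CPM, counts over the gene scaled to a library size, on a log2 scale. That size was not the total count. Zfp36 had 165 counts in brain Frozen and 164 in brain FFPE, but values of 4.84 and 5.10. The total counts of these libraries were 4713901 and 4618827. A further scaling of the libraries is thus part of the values, and values by total count were not computed. Since the counted part of a gene is not stated, levels are set side by side within a gene and never across genes. The spread over genes (median absolute deviation of the log2 values) was 1.62 in brain Frozen, 2.32 in heart Frozen and 2.37 in liver Frozen, against 1.68 to 1.86 in the other 5 libraries. Each organ had its own marker genes highest: the summed CPM of 10 neuron markers was 539 and 770 in the brain libraries against 161 to 257 elsewhere, of 10 cardiomyocyte markers 1295 and 1216 in heart against 186 to 469, of 10 nephron markers 741 and 834 in kidney against 230 to 368, and of 10 hepatocyte markers 1822 and 1261 in liver against 113 to 215.

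Promoter sequences of 8 of the 10 genes were found in the RefSeq table of GRCm38.p6. The 250 bases before the gene start are shown for Zfp36, lowest in brain, for Klf4 and Klf2, highest in heart, and for Klf15, highest in liver, because these 4 carry the organ patterns described after them. Each is written 5′ to 3′ on the gene's strand. The Klf15 window lies inside the annotated span of the gene, before a start that is not its outermost one. Capitals mark GGGCGG on either strand, the GC box that SP and KLF proteins can bind, and the CArG box, the element bound by serum response factor.
Zfp36, chr7:28379229-28379478, minus strand: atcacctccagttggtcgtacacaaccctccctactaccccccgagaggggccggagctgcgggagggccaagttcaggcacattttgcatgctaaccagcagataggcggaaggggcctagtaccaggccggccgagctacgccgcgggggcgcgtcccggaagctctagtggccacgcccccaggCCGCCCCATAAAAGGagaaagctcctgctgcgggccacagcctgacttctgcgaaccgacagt
Klf4, chr4:55532476-55532725, minus strand: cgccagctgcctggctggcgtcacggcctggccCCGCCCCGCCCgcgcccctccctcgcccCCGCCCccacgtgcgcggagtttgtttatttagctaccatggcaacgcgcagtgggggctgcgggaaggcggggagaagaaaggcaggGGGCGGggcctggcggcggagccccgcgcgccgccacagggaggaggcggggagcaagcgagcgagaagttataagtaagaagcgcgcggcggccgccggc
Klf2, chr8:72318812-72319061, plus strand: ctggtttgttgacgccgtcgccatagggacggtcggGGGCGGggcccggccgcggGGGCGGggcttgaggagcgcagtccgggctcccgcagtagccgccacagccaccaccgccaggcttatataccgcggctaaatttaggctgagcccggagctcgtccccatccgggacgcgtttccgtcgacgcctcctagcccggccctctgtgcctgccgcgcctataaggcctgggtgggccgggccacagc
Klf15, chr6:90462326-90462575, plus strand: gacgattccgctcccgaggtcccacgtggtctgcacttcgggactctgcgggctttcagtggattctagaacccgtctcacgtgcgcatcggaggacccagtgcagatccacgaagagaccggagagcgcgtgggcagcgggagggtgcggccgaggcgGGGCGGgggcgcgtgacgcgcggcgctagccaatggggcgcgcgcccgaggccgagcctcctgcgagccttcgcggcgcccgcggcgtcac
In Zfp36 the run of capitals is a GC box on the other strand followed by the overlapping CArG box CCATAAAAGG, which starts 58 bases before the gene start.

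The CArG box was in 1 of the 8 windows, that of Zfp36, and in 1.47% of 32851 promoter windows of the same length. GGGCGG was in 6 of the 8, all but Zfp36l1 and Klf9, and in 32.7% of all windows, with 4 matches in Klf4, 3 in Klf13 and 2 in Klf2. CACCC was in 5 of the 8 and in 52% of all windows. GCGNGGGCG, the letters of the site of the early growth response factor EGR1, was in the windows of Klf4, Klf15, Zfp36 and Klf2 and in 4.7% of all windows. It overlaps a GC box wherever its last letters run on into one. The windows were GC-rich, with a median of 68% G and C against 52.4% over all windows, and Zfp36l1 was the lowest at 48.4%. A match is a description of the sequence only.

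**Figure D1:**
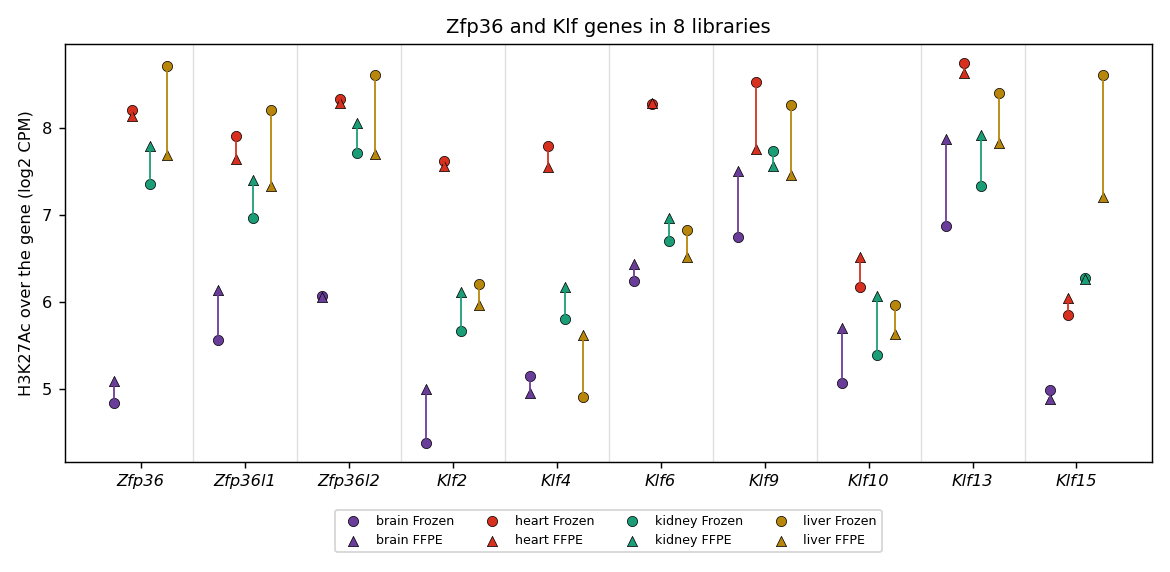
H3K27Ac over each of the 10 genes (log2 CPM, vertical axis) in 8 libraries, circles for Frozen and triangles for FFPE, with a line joining the pair of each organ. Brain (violet) is the lowest organ by mean for all 10 genes, heart (red) the highest for 8, and liver (gold) the highest for Zfp36 and Klf15.

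Zfp36, which encodes tristetraprolin, the founding member of the family and a brake on cytokine mRNAs, lies on chromosome 7 from 28376784 to 28379228 (GRCm38). Its level was 4.84 in brain Frozen and 5.10 in brain FFPE, 8.21 and 8.14 in heart, 7.36 and 7.79 in kidney, and 8.71 and 7.69 in liver (log2 CPM, Frozen then FFPE). Both brain libraries lay below all 6 others. The difference between brain and the mean of the other 3 organs was -3.01 ± 0.24 (log2, SE of the limma fit), 8.08-fold lower. It was -3.25 in Frozen libraries alone and -2.78 in FFPE libraries alone. Heart lay above the mean of the others by 1.26 ± 0.24, and liver and heart did not differ beyond the gap between the liver libraries.

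Zfp36l1 and Zfp36l2, paralogs that act in lymphocyte and blood cell development, also had brain lowest, with heart first by mean and liver next. Zfp36l1 stood at 5.57 and 6.14 in brain, 7.91 and 7.64 in heart, 6.97 and 7.40 in kidney, and 8.21 and 7.34 in liver. Zfp36l2 stood at 6.07 and 6.06 in brain, 8.34 and 8.29 in heart, 7.72 and 8.06 in kidney, and 8.61 and 7.71 in liver. For both genes the brain libraries were the lowest of the 8, and the ranges of heart and liver overlapped, as did those of liver and kidney. Brain lay below the mean of the others by -1.72 ± 0.24 for Zfp36l1 and -2.06 ± 0.24 for Zfp36l2. Across the 8 libraries, which share organs and preservations, the 3 pairs among the Zfp36 genes had Pearson correlations of 0.969 to 0.995.

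Klf2, a factor induced by blood flow in endothelium, and Klf4, which acts in epithelial barriers, vessels and stem cells, were highest in heart. Klf2 stood at 4.38 and 5.01 in brain, 7.63 and 7.57 in heart, 5.67 and 6.12 in kidney, and 6.20 and 5.96 in liver. Klf4 stood at 5.15 and 4.96 in brain, 7.79 and 7.56 in heart, 5.80 and 6.18 in kidney, and 4.90 and 5.62 in liver. Both heart libraries lay above all 6 others for each gene. Klf4 in liver overlapped brain, whereas Klf2 in brain lay apart from liver and kidney. The heart difference was 2.24 ± 0.22 for Klf4, 4.72-fold, and 2.04 ± 0.21 for Klf2, 4.11-fold (log2, SE).

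Klf6, an early response factor of tissue injury, was also highest in heart, at 8.28 and 8.30. It stood at 6.24 and 6.43 in brain, 6.70 and 6.96 in kidney, and 6.83 and 6.52 in liver. Heart lay above the mean of the others by 1.67 ± 0.21, while the ranges of kidney and liver overlapped. Klf2, Klf4 and Klf6 had pairwise correlations of 0.864 to 0.940 across the 8 libraries.

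Klf9, induced by glucocorticoid and thyroid hormone, Klf10, induced by TGF-beta, and Klf13, a regulator of T cell and heart genes, had smaller organ differences. Klf9 stood at 6.75 and 7.51 in brain, 8.53 and 7.76 in heart, 7.74 and 7.56 in kidney, and 8.27 and 7.46 in liver. Its brain FFPE library was above liver FFPE, so brain did not stand apart from liver. Klf10 ranged from 5.07 in brain Frozen to 6.51 in heart FFPE, and Klf13 from 6.88 in brain Frozen to 8.75 in heart Frozen. Heart was the highest organ for each of them, and for Klf10 and Klf13 both heart libraries lay above all others. Brain overlapped kidney for both. The brain difference of Klf9 was -1.43 in Frozen libraries and -0.090 in FFPE libraries, and that of Klf13 was -1.28 and -0.25.

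Klf15, a glucocorticoid-responsive factor of amino acid and glucose metabolism, was the 1 gene of the 10 with both liver libraries above all others. It stood at 4.99 and 4.89 in brain, 5.85 and 6.05 in heart, 6.28 and 6.27 in kidney, and 8.62 and 7.21 in liver. The 4 organs did not overlap, in the order liver, kidney, heart, brain. Its correlations with the other 9 genes ran from -0.16 with Klf4 to 0.76 with Zfp36, whereas the 36 pairs without Klf15 ran from 0.478 to 0.995.

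**Figure D2:**
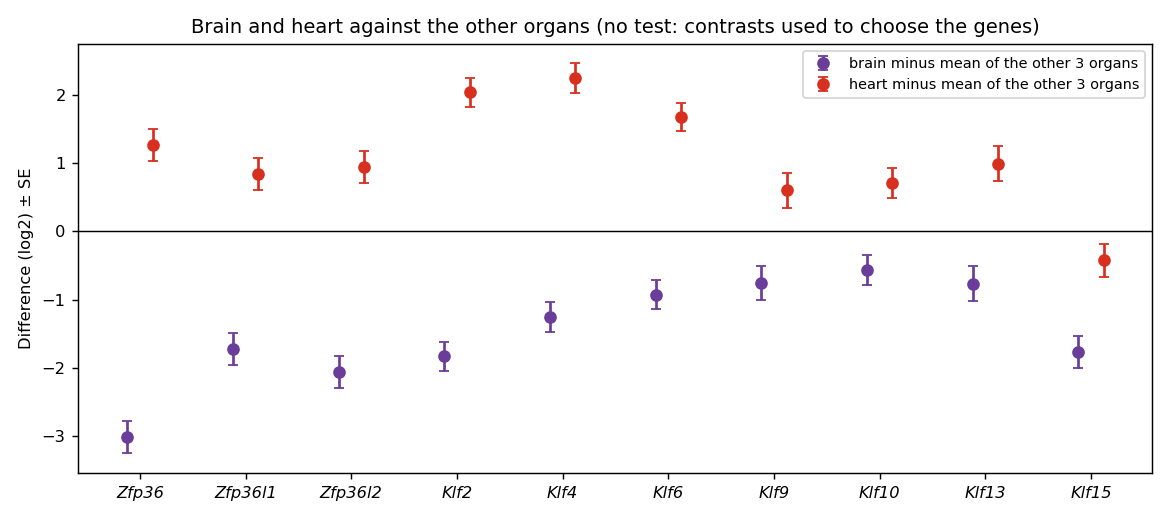
Difference of brain (violet) and of heart (red) from the mean of the other 3 organs for each gene (log2, points with SE of the limma fit). Brain differences run from -3.01 to -0.57, and heart differences from -0.43 for Klf15 to 2.24 for Klf4.

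All 10 genes had a brain mean below the mean of the other organs, as did 47.9% of the 26944 genes tested, with a median of -1.49 against 0.037 over all of these. Both brain libraries lay below all 6 others for 6 genes, Zfp36, Zfp36l1, Zfp36l2, Klf2, Klf6 and Klf15, which was so for 11.7% of all genes tested. Since Zfp36 in brain was among the values that chose the genes, nothing is read from this count. In heart 9 of 10 genes lay above and 1 below, where 52.8% of all genes lay below, with a median of 0.97 against -0.039 over all genes. Both heart libraries lay above all 6 others for 5 genes, Klf2, Klf4, Klf6, Klf10 and Klf13, against 8.94% of all genes tested, and the same limit holds. These signs were the same after each library was rescaled to equal median and spread, where the median of the 10 was -1.24 in brain and 0.56 in heart.

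The genes most like Zfp36 across the 8 libraries, among 15598 genes with a mean of at least 4 log2 CPM, were Zfp36l2 with a Pearson correlation of 0.995, the ribosomal protein gene Rpl37 with 0.994, the RNA-binding protein gene Rbpms with 0.992, the sarcomere gene Myom1 with 0.991 and Prkab1, a subunit of AMP-activated kinase, with 0.987. Their brain differences were -0.94 for Rpl37, -2.32 for Rbpms, -1.01 for Myom1 and -1.20 for Prkab1 (log2). Zfp36 was chosen for the largest difference downward in brain, so that these are smaller was set by the choice. The genes most like Klf4 were Zfp366 with 0.997, Uaca with 0.994, Prkch with 0.992, the VEGF receptor gene Flt1 with 0.988 and Anxa2 with 0.988. Their heart differences ran from 1.32 for Flt1 to 1.83 for Zfp366. The 8 points come from 4 organs, and these correlations are descriptions.

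Markers of several cell types were higher in heart. The median heart difference (log2) was 2.66 for cardiomyocyte, 1.38 for endothelial, 0.75 for fibroblast and smooth muscle and 0.62 for macrophage markers, against -0.039 over all genes. The medians of the other marker lists were below 0, from -1.58 for hepatocyte to -0.19 for lymphocyte markers. Of 15 endothelial markers, 14 were higher in heart and 13 lower in brain by limma adjusted p, 8 without brain Frozen, against 9.42% and 13.6% of all genes. In either direction 16.7% of all genes passed in heart and 22.4% in brain. Their summed CPM was 1687 and 1586 in heart, 431 and 452 in brain, 629 and 828 in kidney and 598 and 653 in liver, and no marker was at 0 counts in any library. Fibroblast and smooth muscle markers summed to 627 and 563 in heart against 332 to 426 elsewhere, and macrophage markers to 205 and 219 in heart against 153 to 226. In whole organs, fewer cells of a type and less H3K27Ac per cell cannot be told apart, and the part of cell makeup in the Klf2, Klf4 and Zfp36 values was not tested. Of 9 measured genes known as targets of KLF2 and KLF4 in endothelium, 6 were higher in heart, 3 with a prior variance without trend. They include thrombomodulin (Thbd) at 2.05 ± 0.21, the sphingosine phosphate receptor gene S1pr1 at 2.04 ± 0.22, the water channel gene Aqp1 at 1.58 ± 0.22 and Edn1 at 0.92 ± 0.23. Without heart Frozen the difference of Edn1 was 0.46, and with a prior variance without trend its limma adjusted p was 0.0965. The list does not separate targets that KLF2 and KLF4 raise from those that they lower, so the count has no direction of regulation.

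**Figure D3:**
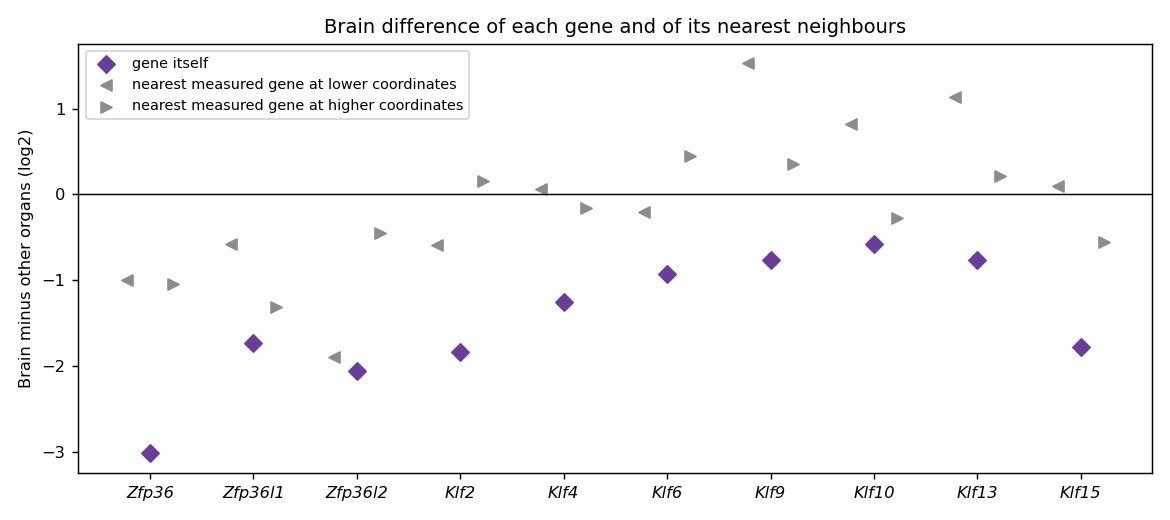
Brain minus the mean of the other organs (log2) for each of the 10 genes (violet diamonds) and for the nearest measured gene on either side (grey triangles). All 20 neighbours lie above their gene, and the lowest neighbour, beside Zfp36l2, is at -1.89. A brain value was among those that chose the genes, so nothing is read from the count.

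The brain difference of each of the 20 flanking genes lay above that of its gene, and some lay well above 0. A brain value was among those that chose the genes, so nothing is read from this count. Plekhg2, 4.10 kb from Zfp36, stood at 5.81 and 5.82 in brain and between 6.34 and 7.50 in the other 6 libraries (log2 CPM). Med29, 6.02 kb away on the other side, was at -1.04 (log2, brain minus the other organs), against -3.01 for Zfp36. Near Zfp36l2 the noncoding gene Gm19696 at 27.5 kb was at -1.89 and Thada at 2.11 kb was at -0.45. The noncoding 2310015A10Rik, 7.53 kb from Zfp36l1, was at -1.31. Higher in brain than in the other organs were Trpm3 beside Klf9 at 1.52, Otud7a beside Klf13 at 1.14 and Odf1 beside Klf10 at 0.82. Over all 20 neighbours the brain difference was below 0 for 11 and had a median of -0.19, and the heart difference was above 0 for 9 with a median of -0.040. Klf4 had no measured gene within 100 kb. Its nearest, Gm12505, 108 kb away, had a heart difference of -0.052. Klf9 and Klf13 overlap other annotated genes, Mir1192 and E030018B13Rik in the table, and the sources used here do not state how the counting treated strand, so reads there may be counted for either gene.

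Preservation was tested across the 4 organs, as FFPE minus Frozen, a contrast that the choice of genes did not use. None of the 10 genes passed limma's adjusted p of 0.05, and none had an unadjusted p under 0.05, while 3.91% of all genes passed. Estimates ran from -0.33 for Klf15 to 0.32 for Klf10 (log2, FFPE minus Frozen), 5 above 0 and 5 below (2 below after quantile normalization, 1 after rescaling to equal median and spread) where 47.8% of all genes lay below, with SEs of 0.18 to 0.22 and adjusted p from 0.418 to 0.964. The 95% intervals together reached from -0.75 to 0.71, so a smaller change in either direction is not resolved. For Zfp36 the estimate was -0.10 with an interval of -0.52 to 0.31, and for Klf4 0.17 with an interval of -0.21 to 0.55. After rescaling to equal median and spread Klf13 passed at 0.65 with limma adjusted p = 0.0196. The organs serve as replicates in this test, and the p-values measure the spread among 8 libraries.

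**Figure D4:**
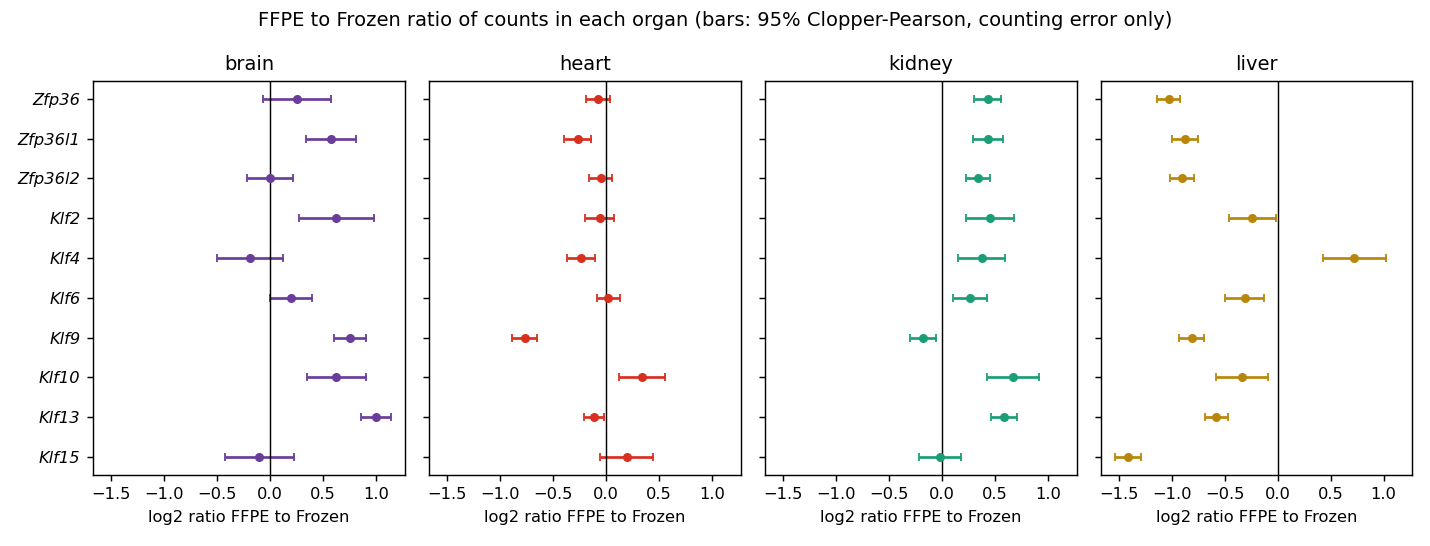
FFPE to Frozen ratio of each gene in each organ on a log2 scale (horizontal axis), with exact Clopper-Pearson 95% intervals for counting error only. Liver lies below 0 for 9 of 10 genes, Klf4 being the exception, and kidney lies above 0 for 8, while 47.9% of all genes lie below 0 in liver and 48.5% in kidney.

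Within single organs the pairs of libraries differed by more than counting error, in opposite directions. In liver 9 of 10 genes were lower in FFPE with intervals below 1, against 27.8% of all genes, and 47.9% of all genes had a lower value in FFPE. All genes tested enter these shares, also those with few counts and wide intervals. Zfp36 had 941 counts in liver FFPE and 2375 in liver Frozen, a ratio of 0.491 (95% interval 0.455 to 0.53), and Klf15 had 674 and 2220, a ratio of 0.376 (0.345 to 0.41). Klf4 went the other way in liver, with 225 and 169 counts and a ratio of 1.65 (1.34 to 2.03), where 23.9% of all genes had intervals above 1. In kidney 8 genes were higher in FFPE with intervals above 1, Zfp36 by a ratio of 1.35 (1.24 to 1.47), and Klf9 was lower. Over all genes these shares in kidney were 19.7% above and 17.6% below. In brain 5 genes had intervals above 1 and none below, against 17% and 13.5% of all genes. In heart 4 were below and 1 above, against 26.7% and 18.5%. Klf9 had ratios of 1.69 in brain and 0.588 in heart. These intervals cover counting error only, and with 1 library a group no organ has a replicate error. The ratios use the library sizes contained in the log2 values, not the total counts, and ratios by total count were not computed.

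The FFPE difference in liver was tested against that in the other 3 organs, a comparison added after these values were seen. Estimates were below 0 for 9 of the 10 genes and for 50.6% of all genes, with a median of -0.94 against -0.010 over all genes, led by Klf15 at -1.44 ± 0.39 and Zfp36 at -1.23 ± 0.41 (log2, SE). None of the 10 passed limma's adjusted p, the lowest being 0.306 for Klf15, while 2 of 26944 genes passed, 0.00742%. An unadjusted p under 0.05 in limma was found for 6 of the 10. The share of all genes under that unadjusted threshold was not computed, and the comparison followed these values, so nothing is read from the 6. After rescaling to equal median and spread the estimates were smaller, -0.68 for Klf15 and -0.62 for Zfp36. Liver Frozen was the library with the widest spread over genes, 2.37 against 1.83 in liver FFPE, and the part of this spread in the liver values was not tested beyond that rescaling.

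**Figure D5:**
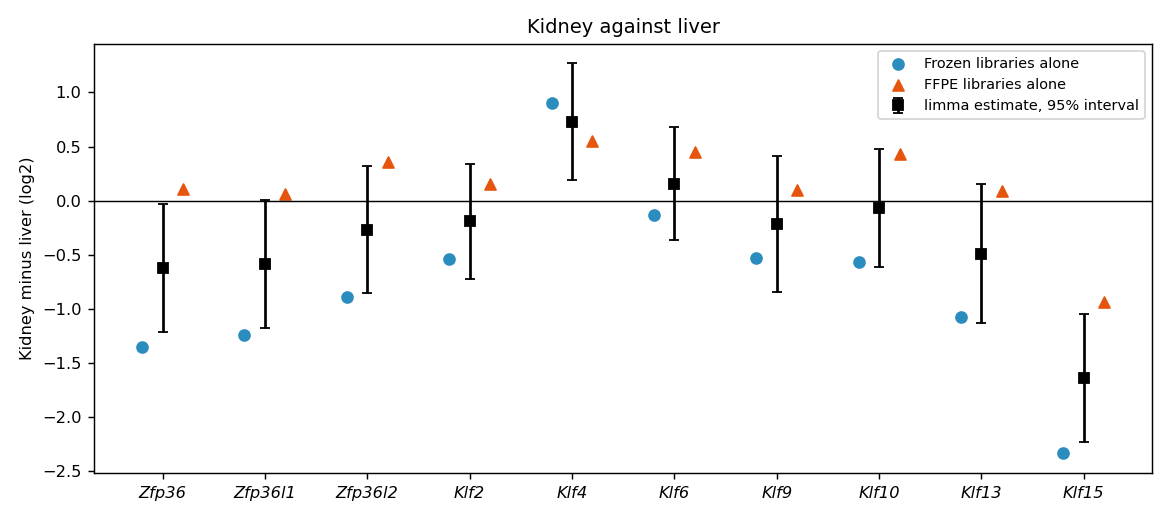
Kidney minus liver for each gene (log2): squares with 95% intervals from limma, circles for Frozen and triangles for FFPE libraries alone. Klf15 is at -1.64 with an interval below 0 in full, and 8 genes are below 0 in Frozen and above 0 in FFPE.

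Kidney was compared with liver, a contrast that does not overlap with brain or heart against the rest in this balanced design. Klf15 was lower in kidney by -1.64 ± 0.29 (log2, SE), 3.11-fold, with limma adjusted p = 9.41e-05 and an interval of -2.22 to -1.05. It was the 1 gene of 10 that passed, against 11.8% of all genes. That share is near the background and says nothing particular of the 10 genes. The difference of Klf15 was -2.33 in Frozen and -0.94 in FFPE. Without liver Frozen it was -0.92 with limma adjusted p = 0.0865, and with a prior variance without trend the adjusted p was 0.0919, so the call rests on liver Frozen and on the variance model.

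Klf4 was the gene with the largest difference in the other direction, 0.73 ± 0.27 higher in kidney, with limma adjusted p = 0.0732. It passed after rescaling to equal median and spread, at 0.81 with limma adjusted p = 0.0164. With a prior variance without trend the limma adjusted p was 0.292. The difference of Klf4 was 1.10 without liver FFPE and 0.36 without liver Frozen. Without either brain library its adjusted p was 0.0364 or 0.0362 in the same test. Zfp36 was at -0.62 ± 0.29 with limma adjusted p = 0.186 and an interval of -1.21 to -0.03. Without liver FFPE it was -1.24 with limma adjusted p = 0.00799, and Zfp36l1 was -1.15 with 0.0176. Without liver Frozen Zfp36 was at -0.0085. Zfp36l1 was at -0.59 with limma adjusted p = 0.221. In all 8 of the 10 genes lay below 0, as did 47.1% of all genes. That count was 4 after quantile normalization, 3 after rescaling to equal median and spread and 3 without liver Frozen. The other 6 genes lay between -0.49 for Klf13 and 0.16 for Klf6.

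Of 10 measured KLF15 target genes of amino acid and energy metabolism, 4 were lower in kidney and 1 higher, against 7.05% and 4.71% of all genes. The tyrosine breakdown enzyme gene Hpd was at -2.82 ± 0.31, the alanine aminotransferase gene Gpt at -1.62 ± 0.29 and the lysine breakdown enzyme gene Aass at -0.86 ± 0.28 (log2, SE), while the glucose transporter gene Slc2a4 was at 1.10 ± 0.28. The call of Gpt was lost without liver Frozen, and that of Aass after quantile normalization, after rescaling to equal median and spread, without a filter and without any 1 of the kidney and liver libraries. The count of 4 was 1 without liver Frozen and 2 without kidney Frozen, kidney FFPE or liver FFPE or after quantile normalization, and the count of 1 was 0 without kidney Frozen or liver Frozen. In brain 8 of the 10 were lower, 4 without brain Frozen, with the proline oxidase gene Prodh at -1.59 ± 0.21. Of all genes 13.6% were lower in brain. Liver cells express several of these genes strongly, and hepatocyte markers were lower in kidney for 10 of 10. The part of cell makeup in the values of these target genes was not tested.

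Glucocorticoid target genes, a group that responds to the same hormone as Klf9 and Klf15, were lower in brain for 8 of 12, against 13.6% of all genes. They include the gluconeogenic enzyme gene Pck1 at -2.71 ± 0.22, the leucine zipper gene Tsc22d3 at -1.51 ± 0.24 and the EGFR inhibitor gene Errfi1 at -1.46 ± 0.20. In heart 5 of 12 were higher, against 9.42% of all genes, led by Zbtb16 at 1.22 ± 0.23. That count was 3 after rescaling to equal median and spread and 0 with a prior variance without trend. Lower in heart were 2, against 7.31% of all genes, Pck1 at -2.63 ± 0.22 and tyrosine aminotransferase (Tat) at -1.91 ± 0.24. The lower genes in both organs include enzymes of liver and kidney.

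Other early response genes, such as Fos, Jun and Egr family members, were represented by 46 measured genes outside the 10. In brain 24 were lower and 6 higher, with a median of -0.83, against 13.6% and 8.73% of all genes. The matricellular genes Ccn1 and Ccn2 were at -1.76 ± 0.22 and -1.66 ± 0.21 (log2, SE), and Cebpd, a factor of the acute phase response, at -1.67 ± 0.22. Egr4, an activity-induced factor of neurons, went the other way at 1.65 ± 0.28. The count of 6 was 3 without brain FFPE or kidney FFPE. In heart 23 were higher, against 9.42% of all genes, with a median of 0.70 against -0.039 over all genes. They were led by Ccn2 at 1.72 ± 0.21, Ccn1 at 1.60 ± 0.22 and Ier3 at 1.45 ± 0.21. That count was 5 without heart Frozen.

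Between kidney and liver 5 of the 46 were lower in kidney and 4 higher, against 7.05% and 4.71% of all genes. With a prior variance without trend both counts were 0. Atf3, a stress response factor, was at -1.54 ± 0.32 (log2, SE) and Egr1 passed with limma adjusted p = 0.000328, while Ier5l was at 1.49 ± 0.26 and Egr3 at 1.31 ± 0.44. The calls of Atf3 and Egr1 were lost without kidney Frozen or liver Frozen, and that of Egr3 after quantile normalization, after rescaling to equal median and spread, without a filter, and without kidney Frozen or liver FFPE. The count of 5 was 0 without kidney Frozen or liver Frozen, 3 without kidney FFPE or after rescaling to equal median and spread and 9 without liver FFPE, and the count of 4 was 2 without kidney FFPE. For FFPE against Frozen none of the 46 passed in limma, with a median of -0.10 against 0.018 over all genes. An unadjusted p under 0.05 in limma was found for 13. The share of all genes under that unadjusted threshold was not computed, so nothing is read from the 13. After quantile normalization 3 of the 46 were higher, and 3 after rescaling to equal median and spread, where 491 and 582 of all genes were higher.

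The rest of the KLF family did not share one direction. Of 10 other Klf genes, Klf3 and Klf11 were lower in brain, at -1.11 ± 0.20 and -1.01 ± 0.21, and Klf12 was higher at 0.84 ± 0.22 (log2, SE), with a median of 0.075. Of all genes 13.6% were lower and 8.73% higher in brain, 9.42% higher in heart and 7.05% lower in kidney than in liver. Counts near these shares say nothing particular of the family. Without brain Frozen no Klf gene of this list was higher. In heart Klf7 at 1.27 ± 0.25 and Klf3 at 0.96 ± 0.20 were higher, and neither was without heart Frozen. Between kidney and liver Klf1, the erythroid factor, was lower in kidney at -0.96 ± 0.28, a call lost without kidney Frozen, kidney FFPE or liver Frozen. Among 9 genes of the related Sp family, Sp5 was higher in kidney than in liver by 1.82 ± 0.34 and lower in heart by -1.41 ± 0.28, and Sp3 was lower in brain by -0.74 ± 0.23 and Sp7 higher by 0.99 ± 0.28. The kidney call of Sp5 was lost without kidney Frozen. That of Sp3 in brain was lost after quantile normalization, after rescaling to equal median and spread, and without brain Frozen or kidney FFPE, and that of Sp7 without either brain library. With a prior variance without trend, the calls of Klf12, Klf7, Klf1, Sp3, Sp5 and Sp7 named here and that of Klf3 in heart were lost.

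Of 15 genes of the CCR4-NOT deadenylase and its BTG and TOB partners, 2 were lower in brain, Cnot9 at -0.66 ± 0.20 and Btg2 at -0.61 ± 0.22 (log2, SE), with a median of -0.44, against 13.6% of all genes. That count was 0 after quantile normalization or rescaling to equal median and spread, where 1 and 2 genes were higher, and without brain Frozen or kidney FFPE. It was 5 without brain FFPE, 6 without liver FFPE and 1 without heart Frozen, heart FFPE or liver Frozen. Btg2 was higher in heart by 0.95 ± 0.22, not without heart Frozen, and Cnot9 was lower in FFPE by -0.63 ± 0.18 with limma adjusted p = 0.0335, where 1.91% of all genes were lower. No gene of this list was lower in FFPE after quantile normalization, after rescaling to equal median and spread, with a prior variance without trend, without a filter, or without any 1 of the heart, kidney and liver libraries. Of 15 genes whose mRNAs are known ZFP36 targets, 5 were lower in brain, 3 without brain Frozen. They include the chemokine gene Cxcl1 at -1.66 ± 0.28, the Notch ligand gene Dll4 at -1.29 ± 0.21 and Vegfa at -1.26 ± 0.24, and Dll4 was higher in heart by 1.69 ± 0.21. The brain calls of Cxcl1 and Vegfa were lost without brain Frozen. H3K27Ac over a gene is not a measure of its mRNA, and mRNA levels were not analysed here.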

How the data were processed

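The labels list 24 mouse samples: 8 inputs and 16 H3K27Ac samples, a pair for each organ and preservation. Reads were processed with Bowtie2, featureCounts and limma on build mm10, per the submitters' processing notes, whose versions, counted features and treatment of replicates the sources used here do not state. The deposited values are log2 CPM made by the authors, in 8 columns with no replicate number and no input column used here. All values returned whole counts within 0.001 as log2 of the count plus 0.5, which gave the depth. The 2 chromatin runs and 2 library kits that the labels name cannot be matched to columns, so they cannot be told apart from the groups.

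The 235 genes without a count in any library were dropped, and 26944 were tested with limma 3.58.1 in R 4.3.3 (lmFit, then eBayes with a variance trend) on the log2 values, with organ and preservation as additive terms and 3 residual degrees of freedom. Tests were two-sided with Benjamini-Hochberg adjustment over all genes, and the script was tested on simulated data. Positions and promoters came from RefSeq tables of GRCm38.p6, the assembly of mm10. The 10 genes, the gene lists and the tests were chosen with earlier results of these data known. Named genes are the 10, the 5 most like Zfp36 and Klf4 each, the nearest measured neighbours and up to 4 genes of each list with the largest difference among those that passed.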

Additional observations from a re-analysis of the deposited data

How the results depend on the processing

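With 1 library per group, depth gives each of the 10 genes at least 120 counts, and the limit is the number of libraries. Where a library was left out, its organ was represented by 1 library that was assumed to vary like the others. No paired analysis was possible because the columns carry no replicate number. For FFPE against Frozen, 1054 genes passed in all. The count was 369 with a prior variance without trend, 608 without a filter, 514 without both liver libraries (added after the values were seen) and 501 to 1969 with 1 library left out. Of the 10 genes, 0 passed, and 1 after rescaling to equal median and spread. For kidney against liver 3168 genes passed, 947 without a variance trend and 1223 to 3624 with 1 library left out. Of the 10 genes 1 passed, 2 after quantile normalization, 2 after that rescaling, 0 without a variance trend and 0 to 4 with 1 library left out. The split of 1268 higher and 1900 lower became 1727 and 1697 after quantile normalization. For brain 6030 genes passed, 2421 without a variance trend and 2505 to 7242 with 1 library left out, and the split of 2353 higher and 3677 lower became 3574 and 3706 after that rescaling and 1267 and 1154 without a variance trend. For heart 4508 passed, 1373 without a variance trend and 872 to 5251 with 1 library left out. For the liver FFPE difference 2 genes passed, 1 after quantile normalization and 0 after that rescaling. For FFPE against Frozen the split of 539 higher and 515 lower became 328 and 41 without a variance trend. Without a variance trend the early response genes higher in heart numbered 6 in place of 23, the KLF15 targets lower in brain 3 in place of 8 and the glucocorticoid targets lower in brain 4 in place of 8. Of the 10 genes only Klf15 passed in the main fit, between kidney and liver, and that difference kept its sign in each setting. Other estimates of the 10 genes did change sign. Klf13 for FFPE against Frozen was 0.65 after that rescaling and -0.034 without brain Frozen. Zfp36 for kidney against liver was -1.24 without liver FFPE and 0.11 in FFPE libraries alone. The cause of these changes was not tested.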
